A study of Mus musculus with 12 samples.

Results

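The collagens are the genes whose symbol on the array platform is Col, a number, a and a number, and they were represented by 55 of the array's 24613 probes. These 55 probes stood for 37 of the 15967 genes named on the array. By the kind of assembly the chains form, 15 probes belonged to fibrillar collagens, 8 to the basement membrane collagens of type IV and 32 to other collagens. The rule used the gene symbol alone, although the collagens were picked as a subject with earlier results of these data known.

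The cells were W9.5, a mouse embryonic stem cell line, taken on days 0, 4, 8 and 15 of a stepwise culture in activin A, then retinoic acid, then retinoic acid with fibroblast growth factor, which was meant to yield pancreatic progenitors. Each day had 3 arrays, 12 in all, of biotin-labelled copies of total RNA. The labels describe the treatment of every array, also those of day 0, in identical words and tie no agent to a day. They do not say whether the 3 arrays of a day came from separate cultures, so the p-values measure the spread between these arrays, which may be technical. A single line was used, no array of untreated cells kept in parallel was analysed, and RNA came from whole cultures.

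Collagens are secreted proteins of 3 intertwined chains. Fibrillar collagens such as types I, III and V pack side by side into the banded fibrils of connective tissue, while type IV collagen joins end to end into the open network of the basement membrane, the sheet on which epithelia rest. Other collagens sit on fibril surfaces, form beaded filaments or anchoring fibrils, span the cell membrane or, as with type XVIII, attach to basement membranes. In the mouse embryo the parietal endoderm, an extraembryonic cell layer that makes a thick basement membrane, is known for its high output of type IV collagen and laminin.

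The results turn on the type IV pair, on Col3a1 and Col6a1, and on Col18a1, and the sequence at the start of each of these genes is shown for that reason. A promoter entry from RefSeq, build GRCm38.p6, was found for 30 of the 37 genes. Each line runs from 100 bases before the annotated start to 50 bases after it, 5′ to 3′ on the gene's own strand. Capitals mark matches, on either strand, to the GC box letters GGGCGG or to the box named CCAAT, and the start of the TATA box, TATAAA, was looked for as well. Col4a1 and Col4a2 lie head to head on chromosome 8, with Col4a1 on the minus strand (chr8:11312777-11312926) and Col4a2 on the plus strand (chr8:11312705-11312854), and the transcripts overlap by 22 bases at their starts. Col3a1 is on the plus strand of chromosome 1 (chr1:45311438-45311587) and Col6a1 on the minus strand of chromosome 10 (chr10:76725995-76726144). Col18a1, also on the minus strand of chromosome 10, has 2 annotated starts (chr10:77166481-77166630 and chr10:77113656-77113805).
Col4a1: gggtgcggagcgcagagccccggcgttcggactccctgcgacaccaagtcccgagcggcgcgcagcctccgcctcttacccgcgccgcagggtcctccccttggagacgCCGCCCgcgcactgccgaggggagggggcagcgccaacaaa
Col4a2: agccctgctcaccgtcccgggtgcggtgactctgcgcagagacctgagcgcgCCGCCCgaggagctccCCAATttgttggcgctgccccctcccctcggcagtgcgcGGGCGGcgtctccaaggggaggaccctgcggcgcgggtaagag
Col3a1: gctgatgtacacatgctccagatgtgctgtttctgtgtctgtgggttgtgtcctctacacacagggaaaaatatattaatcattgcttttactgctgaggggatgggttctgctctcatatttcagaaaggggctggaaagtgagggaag
Col6a1: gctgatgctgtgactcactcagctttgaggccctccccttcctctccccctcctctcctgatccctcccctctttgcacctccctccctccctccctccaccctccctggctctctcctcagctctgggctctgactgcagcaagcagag
Col18a1, first start: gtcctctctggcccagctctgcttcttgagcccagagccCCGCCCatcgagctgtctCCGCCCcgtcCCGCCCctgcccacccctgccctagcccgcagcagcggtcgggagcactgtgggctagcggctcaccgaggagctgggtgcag
Col18a1, second start: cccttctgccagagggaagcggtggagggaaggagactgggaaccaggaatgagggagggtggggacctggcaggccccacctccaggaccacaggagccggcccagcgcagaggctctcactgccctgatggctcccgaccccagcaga
Of 32851 windows of this length in the table, 28.8% held GGGCGG on either strand, the CCAAT letters were in 23.4% and the letters TATAAA in 6.94%. The match to GGGCGG after the start of Col4a1 and the one after the start of Col4a2 are the same 6 bases read on opposite strands. The windows of Col3a1 and Col6a1 and that of the second Col18a1 start held no match. A match here is a description of the letters and not a binding site.

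A probe counted as detected on an array where its detection p, deposited with the scanner intensity, was under 0.05. Levels are log2 intensities after background correction and quantile normalization, and levels of different probes are not set against each other. Between 11253 and 12554 probes were detected per array, and the median scanner intensity per array lay between 71.2 and 86.3. Arrays of a day correlated at 0.985 or more over all tested probes, and arrays of different days at 0.969 or less. All 6 pluripotency markers on the array were detected on every array of every day, those labelled day 0 among them, whereas Ptf1a and Nkx6-1, genes that define pancreatic progenitors, were detected on 0 arrays and Pdx1 on 1 array, of day 8.

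Of the 55 collagen probes, 24 were detected on at least 3 of the 12 arrays and were tested, for 23 genes. The other 31 probes were not tested, and 26 of them were detected on 0 arrays. Day 0 arrays detected 15.3 ± 2.08 collagen probes, day 4 arrays 20.7 ± 1.15, day 8 arrays 19 ± 1 and day 15 arrays 20.7 ± 0.577 (SD, n = 3 each). A probe is called changed where limma's moderated test gave a Benjamini-Hochberg adjusted p under 0.05 over all 13421 tested probes. The first step, day 4 against day 0, called 10 collagen probes higher, 0 lower and 14 neither way, where 13.4% of all tested probes were called higher and 11.4% lower. In that step limma's test found 0 collagen probes lower and 12 higher at an unadjusted p under 0.05, and 0 or 1 lower under the other settings tried. The second step, day 8 against day 4, called 8 higher and 5 lower, against a background of 25.6% and 26.3%. The last step, day 15 against day 8, called 9 higher and 3 lower, against 10.8% and 8.38%. Over the whole course, day 15 against day 0, 16 collagen probes were called higher and 4 lower, where 29.3% and 35.8% of all tested probes were. Day 15 against day 0 reuses the arrays of the first and last steps. Since 14 of the 24 tested probes were not detected on all arrays, these counts describe the probes that passed the detection filter. Some reached the needed 3 arrays only through days on which they were high. These were Col9a2 (day 4), Col2a1 (day 8), Col4a5 and Col8a2 (day 15) and Col5a3 (days 0 and 4). Their calls, partly set by the filter, are included in these counts and in the class counts below.

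**Figure D1:**
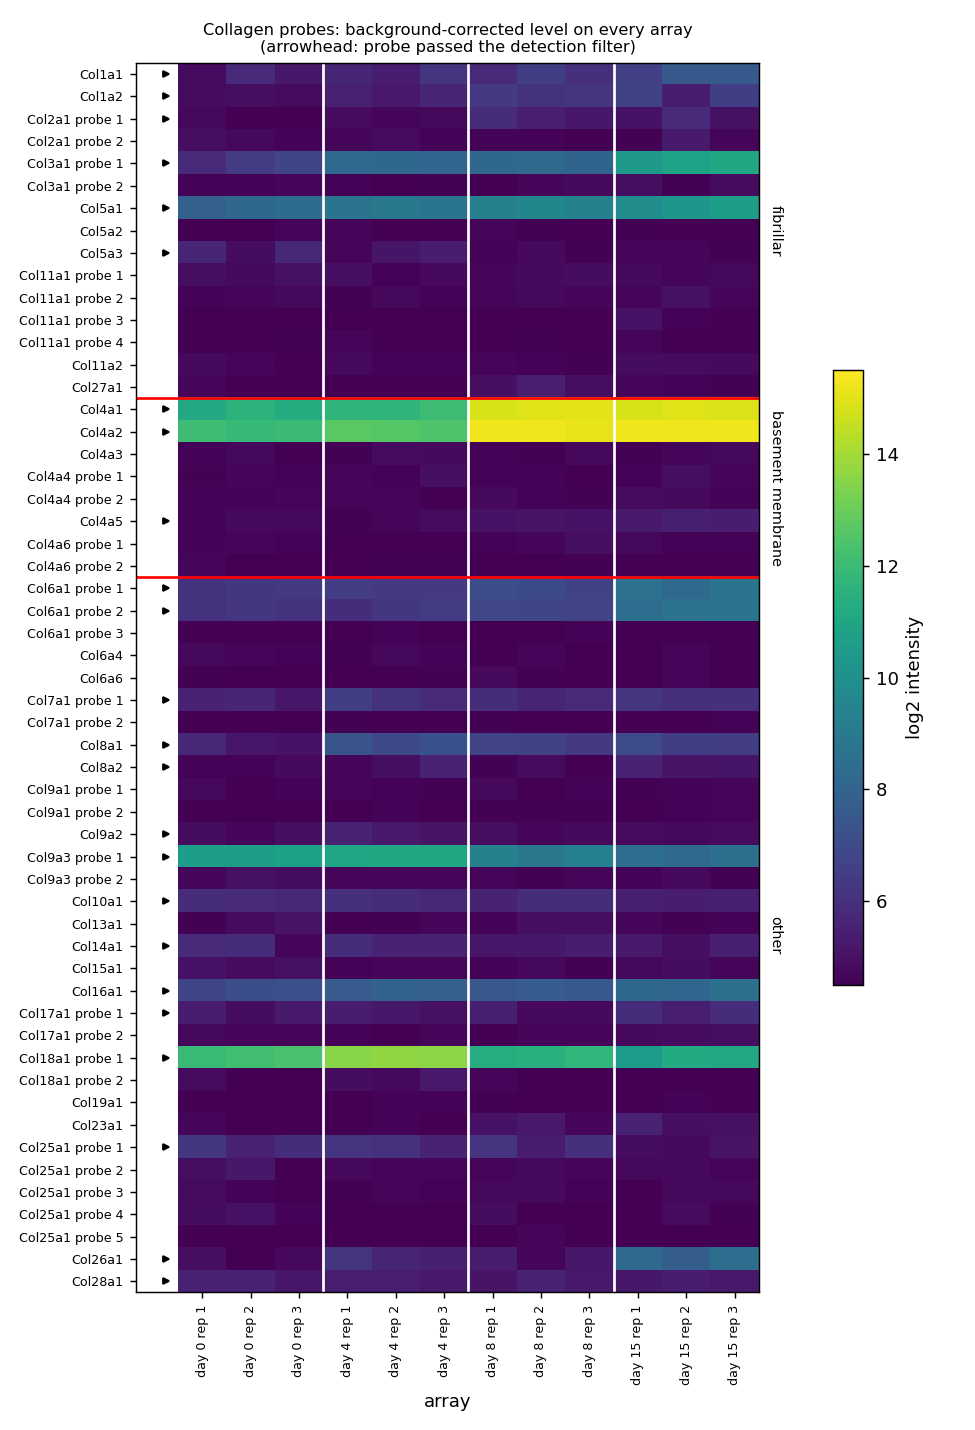
Background-corrected log2 intensity (colour scale) of all 55 collagen probes (rows, grouped by class) on each of the 12 arrays (columns, days 0, 4, 8 and 15 with 3 arrays each); an arrowhead marks the 24 tested probes. The bright rows are Col4a1, Col4a2, Col18a1, Col9a3, Col3a1 and Col5a1, and most rows stay dark on all arrays.

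The type IV pair was called higher in the first step and, by a larger difference, in the second, and was not called in the last. Col4a1 and Col4a2 encode the α1 and α2 chains that join, 2 of the first with 1 of the second, into the type IV molecule found in all basement membranes. Col4a1 read 11.15, 11.61 and 11.31 on day 0, 11.71, 11.71 and 12.04 on day 4, 14.82, 14.96 and 15.03 on day 8, and 14.84, 14.96 and 14.92 on day 15. Every array of days 8 and 15 stood above every array of days 0 and 4, with no overlap. Col4a1 was 8.68-fold higher on day 8 than on day 4 (log2 difference 3.12 ± 0.12 SE, adjusted p = 2.55e-12). Its difference between day 15 and day 8 was -0.03 ± 0.12 (adjusted p = 0.903), and the arrays of these days overlapped, with its probe ranked 7 to 21 in brightness among all probes on them. The first step was small for Col4a1, at 0.46 ± 0.12 (adjusted p = 0.00904), and this call was lost without day 4 replicate 3 (adjusted p = 0.058).

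Col4a2 followed the same course. Its levels were 12.09, 11.89 and 11.99 on day 0, 12.70, 12.61 and 12.47 on day 4, 15.25, 15.25 and 15.16 on day 8 and 15.25 on each array of day 15. Day 4 stood above day 0 by 0.60 ± 0.09 (adjusted p = 6.55e-05), and day 8 read higher than day 4 by 2.62 ± 0.09 on the log2 scale (adjusted p = 7.02e-13). Its probe was the brightest of all 24613 on 5 of the 6 arrays of days 8 and 15 and ranked 2 on the other, day 8 replicate 3. Quantile normalization gives the brightest probe of each array the same value, so the equal readings of Col4a2 leave no room for a difference between day 15 and day 8, and its difference between day 8 and day 4 is a reading at the ceiling of the scale and not an exact size. In the authors' deposited values, Col4a2 averaged 15.04 ± 0.11 on day 15 and 14.93 ± 0.09 on day 8 (SD, n = 3 each). For Col4a1 the last step minus the second step was -3.15 ± 0.21 (adjusted p = 5.02e-09). That difference between steps, a contrast added after the values had been seen, was called lower for 16% of all tested probes and higher for 15.8%, and it is not given for Col4a2, whose last step the ceiling fixes.

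The other type IV chains form networks restricted to tissues such as kidney and lung, and they stayed near the limit of detection. Col4a3, Col4a4 and Col4a6 were detected on 0 arrays with any of their 5 probes. Col4a5 was detected on the 3 arrays of day 15 only and passed the filter through them. It read 5.37 ± 0.09 on day 15 and 4.70 ± 0.08 on day 0 (SD, n = 3 each), at least 1.09-fold higher, where the bound takes the detection floor of day 0 as the lower level, and no p is given since day 15 let it into the test. Its call on day 8 against day 4 compares levels that were both under detection and gives no fold, and it was lost on leaving out any of 5 of the 6 arrays (adjusted p between 0.0575 and 0.113). Both chains of the ubiquitous type IV molecule thus carried the change, while 1 of the 4 restricted chains was detected.

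**Figure D2:**
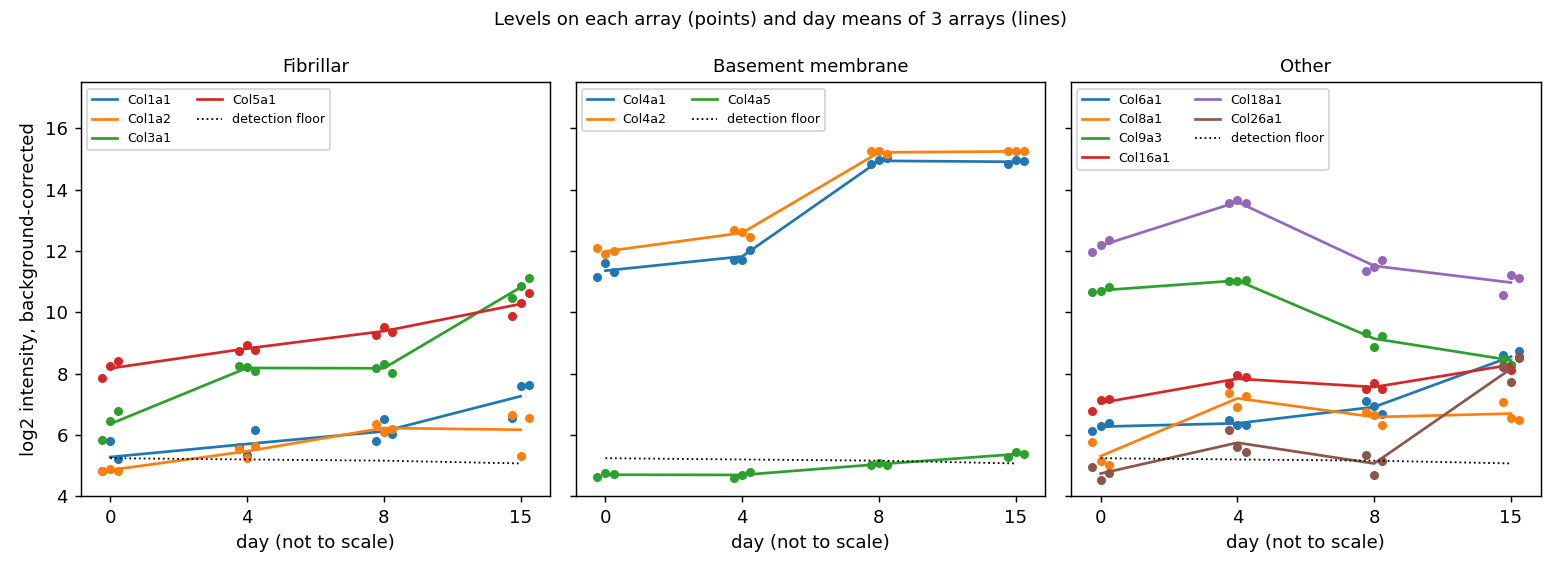
Background-corrected log2 intensity (y axis) on each array (points) and the mean of 3 arrays per day (lines) against day (x axis, days 0, 4, 8 and 15, not to scale) for fibrillar (left), basement membrane (middle) and other collagens (right); the dotted line is the mean detection floor of each day. Col4a1 and Col4a2 rise a little at day 4 and more at day 8, Col3a1 steps up at days 4 and 15, and Col9a3 and Col18a1 decline after day 4.

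Of the 6 fibrillar probes tested, 2 were called higher in the first step, 3 in the second and 3 in the last. Of all tested probes, 13.4%, 25.6% and 10.8% were called higher in these steps, and 11.4%, 26.3% and 8.38% lower. In each of these steps 0 fibrillar probes were lower, also at an unadjusted p under 0.05 by limma. Of the 3 in the second step, Col2a1 had passed the detection filter through day 8. By day 15 against day 0, 5 were higher and 1 lower, against 29.3% and 35.8% of all tested probes. Col3a1 encodes the chain of type III collagen, a fibril of soft tissues such as vessel walls and gut. It read 5.84, 6.45 and 6.78 on day 0, 8.26, 8.20 and 8.09 on day 4, 8.17, 8.32 and 8.03 on day 8, and 10.45, 10.87 and 11.12 on day 15. The arrays fell into 3 separate bands, day 0 lowest, days 4 and 8 together, and day 15 highest. On day 4 it was higher than on day 0 by 1.83 ± 0.21 (adjusted p = 4.34e-06), and on day 15 it was 6.23-fold higher than on day 8 (log2 2.64 ± 0.21, adjusted p = 6.52e-08). Day 8 differed from day 4 by -0.01 ± 0.21 (adjusted p = 0.971), with overlapping arrays. Over the whole course, day 15 was 21.9-fold above day 0 (log2 4.46 ± 0.21, adjusted p = 1.17e-11), while the authors' deposited values, which still hold the background, gave a log2 difference of 3.56.

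Col3a1 and the type IV pair were all called higher in the first step. The last step minus the second was 2.65 ± 0.36 for Col3a1 (adjusted p = 2.19e-05), the opposite sign to Col4a1. A second Col3a1 probe was detected on 0 arrays, day 15 included.

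Col1a1 and Col1a2 encode the 2 chains of type I collagen, the main fibril of skin, tendon and bone, and both were dim. Col1a1 read 4.82, 5.81 and 5.21 on day 0, where 1 of 3 arrays detected it, 5.62, 5.34 and 6.15 on day 4, 5.80, 6.52 and 6.02 on day 8, and 6.57, 7.58 and 7.63 on day 15. All day 15 arrays stood above all earlier ones, while the arrays of the first 3 days overlapped one another. Col1a1 was 2.21-fold higher on day 15 than on day 8 (log2 1.15 ± 0.30, adjusted p = 0.0117). That call was lost on leaving out day 8 replicate 1 (adjusted p = 0.0589), day 15 replicate 2 (0.0565) or day 15 replicate 3 (0.0605). Against day 0, day 15 was higher by 1.98 ± 0.30 (adjusted p = 1.95e-05), and by 1.30 in the authors' deposited values.

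Col1a2 was detected on 0 of 3 arrays on day 0, where it read 4.82, 4.90 and 4.84, and on all 9 later arrays. It read 5.53, 5.24 and 5.64 on day 4, 6.37, 6.10 and 6.21 on day 8, and 6.64, 5.33 and 6.54 on day 15. Replicate 2 of day 15 lay among the day 4 values and apart from the other two of its day. Day 8 was 1.69-fold above day 4 (log2 0.76 ± 0.25, adjusted p = 0.0187), a call lost on leaving out day 8 replicate 1 (adjusted p = 0.0615) or day 4 replicate 2 (0.0778). Day 15 was at least 1.90-fold above day 0 (adjusted p = 0.000222), and differed from day 8 by -0.06 ± 0.25 (adjusted p = 0.916). The last step minus the second step missed the threshold for Col1a1 (0.73 ± 0.52, adjusted p = 0.325) and for Col1a2 (-0.81 ± 0.44, adjusted p = 0.179). This contrast lies within 1 probe, so a difference between the 2 chains in timing was not tested.

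Col5a1, named here after its values were seen, encodes a chain of type V collagen, a minor fibril component that starts the assembly of type I fibrils. It was the 1 collagen probe called higher in all 3 steps. Its arrays read 7.87, 8.23 and 8.41 on day 0, 8.75, 8.93 and 8.77 on day 4, 9.28, 9.53 and 9.34 on day 8, and 9.89, 10.29 and 10.62 on day 15. No array of a later day overlapped an earlier day, and day 15 stood 4.28-fold above day 0 (log2 2.10 ± 0.18, adjusted p = 1.56e-08). Its first call was lost without day 0 replicate 1 (adjusted p = 0.0594) or day 4 replicate 2 (0.0529), and its second without day 8 replicate 2 (0.0568). The partner chain Col5a2 was detected on 0 arrays. The remaining fibrillar probes tested, Col2a1 and Col5a3, were each near the detection floor: Col2a1, the chain of cartilage type II collagen, was detected on 3 of 3 arrays on day 8 and 1 of 3 on day 15, and Col5a3 on 2 of 3 on day 0 and 0 of 6 on days 8 and 15. Col11a1, with 4 probes, and Col11a2 were detected on 0 arrays, and Col27a1 on 1.

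Among the other collagens, Col18a1 and Col9a3 fell on day 8. Of 15 tested probes, 2 were called higher and 5 lower on day 8 against day 4, where 25.6% and 26.3% of all tested probes were. The 2 higher probes stood for 1 gene, Col6a1. Col18a1 encodes type XVIII collagen, a proteoglycan of basement membranes whose tail can be released as endostatin, an inhibitor of vessel growth. It read 11.97, 12.19 and 12.35 on day 0, 13.56, 13.66 and 13.57 on day 4, 11.36, 11.47 and 11.72 on day 8, and 10.58, 11.21 and 11.12 on day 15. The day 4 arrays stood above all others, and those of day 15 below all others. Col18a1 was 2.69-fold higher on day 4 than on day 0 (log2 1.43 ± 0.15, adjusted p = 1.85e-06), and on day 8 it was lower than on day 4 by a log2 difference of -2.09 ± 0.15 (adjusted p = 4.82e-09). The last step took it lower still, by -0.54 ± 0.15 (adjusted p = 0.0165), a call lost on leaving out day 15 replicate 1 (adjusted p = 0.0963) or day 8 replicate 3 (0.0924). A second Col18a1 probe was detected on 1 array. The probes were not assigned to either of the 2 starts printed above.

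Col18a1 and the type IV pair, all of the basement membrane, thus moved in opposite directions on day 8. Col9a3 moved with Col18a1 in the second and last steps. It encodes the α3 chain of type IX collagen, which sits on the surface of type II fibrils in cartilage. Its arrays read 10.65, 10.68 and 10.81 on day 0, 11.02, 11.03 and 11.05 on day 4, 9.32, 8.87 and 9.23 on day 8, and 8.49, 8.27 and 8.54 on day 15. Days 0 and 4 lay close together but did not overlap, well above day 8, with day 15 below it. Day 4 differed from day 0 by 0.32 ± 0.13 (adjusted p = 0.0885), which was not called. Its day 8 level was lower than that of day 4 by -1.90 ± 0.13 on the log2 scale (adjusted p = 2.86e-09), and day 15 was lower than day 8 by -0.70 ± 0.13 (adjusted p = 0.000842). Of its partner chains, Col9a1 was detected on 0 arrays with either probe, and Col9a2 on the 3 arrays of day 4 only, through which it passed the detection filter. Col9a2 read 5.54, 5.23 and 5.10 on day 4, against 4.87, 4.67 and 4.96 on day 0, and since day 4 let it into the test, no p is given for this difference. The second Col9a3 probe was detected on 0 arrays.

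Col26a1 and Col6a1 rose late. Col26a1 encodes a collagen with an EMI domain, a cysteine-rich module of some matrix proteins. It was detected on 0 of 3 arrays on day 0, at 4.95, 4.53 and 4.75. It read 6.17, 5.62 and 5.45 on day 4, 5.35, 4.69 and 5.16 on day 8, and 8.25, 7.73 and 8.50 on day 15. The day 15 arrays stood apart from all 9 others, and 2 of 3 arrays on day 8 detected the probe. It was 8.52-fold higher on day 15 than on day 8 (log2 3.09 ± 0.23, adjusted p = 3.26e-08), and the authors' deposited values gave a log2 difference of 2.12. The smaller decline on day 8, -0.68 ± 0.23 against day 4 (adjusted p = 0.0205), was lost with an offset of 50 (adjusted p = 0.0539) and on leaving out day 4 replicate 1 (0.116) or day 8 replicate 2 (0.119). On day 4 it was at least 1.42-fold above day 0 (adjusted p = 0.00376). The last step minus the second was 3.77 ± 0.40 (adjusted p = 1.25e-06), of the same sign as for Col3a1. That sign does not mark a late rise by itself. It was also positive for Col18a1 (1.54 ± 0.26, adjusted p = 0.000197) and Col9a3 (1.19 ± 0.23, adjusted p = 0.000606), which were lower in both of these steps.

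Col6a1 encodes the α1 chain of type VI collagen, which forms beaded filaments around cells with the α2 and α3 chains. The brighter of its 2 tested probes read 6.12, 6.30 and 6.39 on day 0, 6.49, 6.32 and 6.33 on day 4, 7.11, 6.96 and 6.67 on day 8, and 8.61, 8.29 and 8.75 on day 15. The first 2 days overlapped, day 8 lay above them, and day 15 lay well above day 8. Day 15 was 3.11-fold above day 8 (log2 1.64 ± 0.17, adjusted p = 1.33e-06), and the other tested probe gave 1.83 ± 0.16 (adjusted p = 1.53e-07). Both probes were called higher in the second step too, by 0.53 ± 0.17 and 0.60 ± 0.16 (adjusted p = 0.0129 and 0.00386), though the brighter one was not without day 8 replicate 1 (adjusted p = 0.0668). Against day 0, day 15 was higher by 2.28 ± 0.17 with the brighter probe (adjusted p = 2.92e-09), and by 1.67 in the authors' deposited values. Col6a2 and Col6a3 were not analysed here, and Col6a4 and Col6a6 were detected on 0 arrays.

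Col8a1 appeared early and stayed. It encodes a short chain that forms hexagonal networks, as in the cornea and the vessel wall. It read 5.75, 5.15 and 5.02 on day 0, with 1 of 3 arrays detecting it, 7.37, 6.93 and 7.29 on day 4, 6.76, 6.66 and 6.33 on day 8, and 7.06, 6.54 and 6.48 on day 15. All 9 later arrays stood above day 0, and day 4 above day 8. Col8a1 was 3.70-fold higher on day 4 than on day 0 (log2 1.89 ± 0.22, adjusted p = 4.43e-06), with a log2 difference of 1.24 in the authors' deposited values. Day 8 was lower than day 4 by -0.61 ± 0.22 (adjusted p = 0.0251), a call lost without day 4 replicate 1 (adjusted p = 0.0871), day 4 replicate 3 (0.0743) or day 8 replicate 3 (0.113).

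The other tested collagens moved less than 1 on the log2 scale in each step. Col16a1, a fibril-associated collagen, was higher by 0.79 ± 0.16 on day 4 than on day 0 (adjusted p = 0.00162) and by 0.73 ± 0.16 on day 15 than on day 8 (adjusted p = 0.00379). Col7a1, the chain of the anchoring fibrils under skin epithelium, was higher by 0.69 ± 0.19 on day 4 than on day 0 (adjusted p = 0.0136), a call lost without day 4 replicate 1 (adjusted p = 0.0776) or day 0 replicate 3 (0.0759). Col17a1, a membrane-spanning collagen of the hemidesmosome, was higher on day 15 than on day 8 by 0.72 ± 0.21 (adjusted p = 0.019), but its arrays of the 2 days overlapped, and leaving out any of 4 arrays gave an adjusted p between 0.0713 and 0.0951. Col25a1, a membrane-spanning collagen of neurons, was detected on all 9 arrays of days 0 to 8 and on 0 of 3 on day 15, at least 1.70-fold lower on day 15 than on day 8 (adjusted p = 0.00883), which was lost without day 8 replicate 1 (adjusted p = 0.0545). These 4 genes were named after their values were seen. Col8a2, the other chain of type VIII collagen, was detected on 1 of 3 arrays on day 4 and 3 of 3 on day 15, at least 1.07-fold higher on day 15 than on day 8, with no p given since it passed the detection filter through day 15. Col10a1, Col14a1, Col28a1 and Col5a3 were called in none of the 3 steps.

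The undetected probes fell into 2 kinds. For 14 genes no probe was tested, among them Col13a1, Col15a1 and Col19a1, each detected on 0 arrays, and Col23a1, a membrane-spanning collagen, detected on 2. For 8 further genes an untested probe stood beside a tested one: Col2a1, Col3a1, Col6a1, Col7a1, Col9a3, Col17a1, Col18a1 and Col25a1. A gene's silence on 1 probe was therefore no measure of the gene, and for genes with a single silent probe, such as Col5a2 or Col15a1, no second probe was there to compare.

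**Figure D3:**
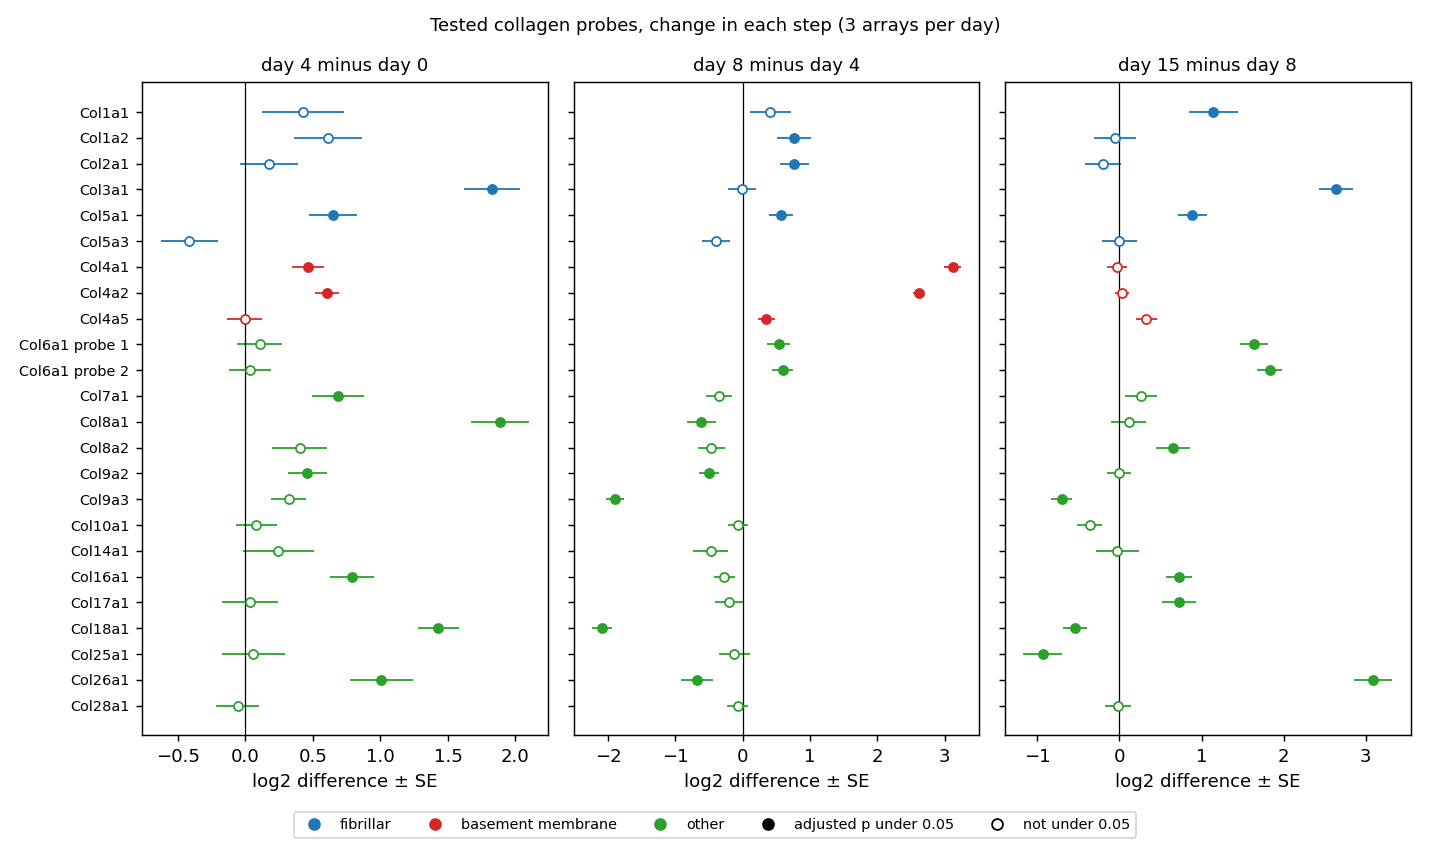
Log2 difference ± SE (x axis) of the 24 tested collagen probes (rows) in each step, day 4 minus day 0 (left), day 8 minus day 4 (middle) and day 15 minus day 8 (right), coloured by class; filled points have an adjusted p under 0.05. Col4a1 and Col4a2 stand apart to the right in the second step, with Col9a3 and Col18a1 to the left, and Col26a1, Col3a1 and Col6a1 stand to the right in the last step.

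By class, the median log2 difference of the 3 basement membrane probes tested was 0.46 on day 4 against day 0, 2.62 on day 8 against day 4 and 0.03 on day 15 against day 8. Those of the 6 fibrillar probes were 0.52, 0.49 and 0.44, and those of the 15 other probes were 0.32, -0.35 and 0.11. Over all tested probes the same medians were -0.05, -0.03 and -0.05. These medians stand over members that differ, with fibrillar probes between -0.41 and 1.83 in the first step, and the classes were not tested against each other. With 3 basement membrane probes, the median is the reading of 1 probe, Col4a1 in the first step and Col4a2 in the later steps. Those Col4a2 readings are limited by the ceiling of the scale, and the remaining probe, Col4a5, was detected on day 15 only. Over the 4 days together, limma's moderated F-test called 21 of the 24 probes, where it called 72.6% of all tested probes. The highest mean of these 21 fell on day 0 for 1 probe, day 4 for 6, day 8 for 3 and day 15 for 11, where 26%, 13.2%, 13.5% and 19.9% of all tested probes were called with their highest mean on days 0, 4, 8 and 15.

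Collagen chains are modified, folded, exported, trimmed and cross-linked by dedicated proteins, and the genes for these were followed in 7 lists. Of all tested probes, 13.4% were called higher and 11.4% lower in the first step, and 25.6% and 26.3% in the second. Prolyl and lysyl hydroxylases and their helpers stabilise the triple helix and mark sites for cross-links, and 10 of 13 tested genes of this list were called higher and 0 lower on day 8 against day 4 (median log2 difference 1.01, with 0 lower also at an unadjusted p under 0.05 by limma). P4ha2, a prolyl 4-hydroxylase, averaged 12.06 ± 0.05 on day 8 and 9.10 ± 0.14 on day 4, a 7.81-fold difference (adjusted p = 2.67e-12). P4ha1, its relative, was 6.36-fold higher on day 8 than on day 4, and Plod2, a lysyl hydroxylase, 6.31-fold. P4ha1 had already been 3.71-fold higher on day 4 than on day 0, in the step in which 7 genes of the list were called higher. All 9 tested genes of folding and export were called higher on day 8 against day 4. Among them, Creb3l1 was detected on 0 arrays of day 4, 2 of 3 on day 8 and 1 of 3 on day 15. It passed the detection filter through days 8 and 15, so its call was partly set by the filter. Serpinh1 encodes HSP47, a chaperone that binds collagen alone, and averaged 14.82 ± 0.06 on day 8 and 12.59 ± 0.10 on day 4, 4.69-fold higher (adjusted p = 2.44e-12). Fkbp14, a prolyl isomerase of the endoplasmic reticulum, was 3.19-fold higher on day 8 than on day 4 and 2.94-fold higher on day 15 than on day 8.

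Basement membrane partners moved with the type IV pair in the second step. Of 11 tested, 8 were called higher and 0 lower, where 25.6% and 26.3% of all tested probes were. In the first step 1 was called higher and 0 lower, where 13.4% and 11.4% of all tested probes were. By limma's unadjusted p under 0.05, 0 were lower in both steps. Lama1, Lamb1 and Nid1, for 2 laminin chains and for nidogen, which links laminin to type IV collagen, were 9.33-fold, 6.18-fold and 6.09-fold higher on day 8 than on day 4. In the last step Nid1 was a further 3.53-fold higher, whereas Agrn and Hspg2, for the proteoglycans agrin and perlecan, were 2.10-fold and 2.02-fold lower on day 15 than on day 8.

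Partners of the fibrils took another course. All 6 tested were called higher on day 4 against day 0, where 13.4% of all tested probes were. On day 8 against day 4, 1 was called higher and 4 lower, against 25.6% and 26.3% of all tested probes. On day 15 against day 8, 3 were called higher and 0 lower (1 lower at an unadjusted p under 0.05 by limma), against 10.8% and 8.38%. Dcn, for decorin, a small proteoglycan that binds fibrils, had a day 0 mean of 6.77 ± 0.26, a day 4 mean of 9.73 ± 0.14, a day 8 mean of 8.88 ± 0.18 and a day 15 mean of 10.30 ± 0.25 (SD, n = 3 each). Lum, for the related lumican, was detected on 0 arrays of day 8 and on all 3 of day 15, at least 5.93-fold higher on day 15, the day through which it passed the detection filter. Sparc, which binds type IV as well as fibrillar collagens, was the 1 called higher in the second step, 5.96-fold.

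The lists of trimming and breakdown were mixed. Of 8 genes of processing and cross-linking tested, 2 were called higher and 4 lower on day 8 against day 4. Of all tested probes, 25.6% and 26.3% were. Pcolce2, an enhancer of the protease that trims fibrillar procollagen, averaged 5.92 ± 0.45 on day 8 and 10.15 ± 0.20 on day 4, 18.7-fold lower on day 8 (adjusted p = 4.16e-11). Loxl2 and Tgm2, which make cross-links in the matrix, were 4.60-fold and 5.28-fold higher. Lox, a lysyl oxidase, had been 2.84-fold higher on day 4 than on day 0. Among genes of collagen breakdown and its inhibitors, 7 of 11 were called higher and 1 lower on day 4 against day 0. Of all tested probes, 13.4% and 11.4% were. The higher ones were led by Mmp2, a gelatinase, at 4.51-fold and Ctsk, cathepsin K, at 3.90-fold. Timp3, an inhibitor of metalloproteinases held in the matrix, was 5.77-fold higher on day 8 than on day 4. Of 3 tested receptor genes, Itga11, the integrin chain that binds type I collagen, was detected on 0 arrays on day 0 and at least 4.84-fold higher on day 4 (adjusted p = 5.07e-10), then 3.58-fold lower on day 8 than on day 4. Ddr1, a receptor kinase for collagen, was 2.39-fold higher on day 8 than on day 4.

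**Figure D4:**
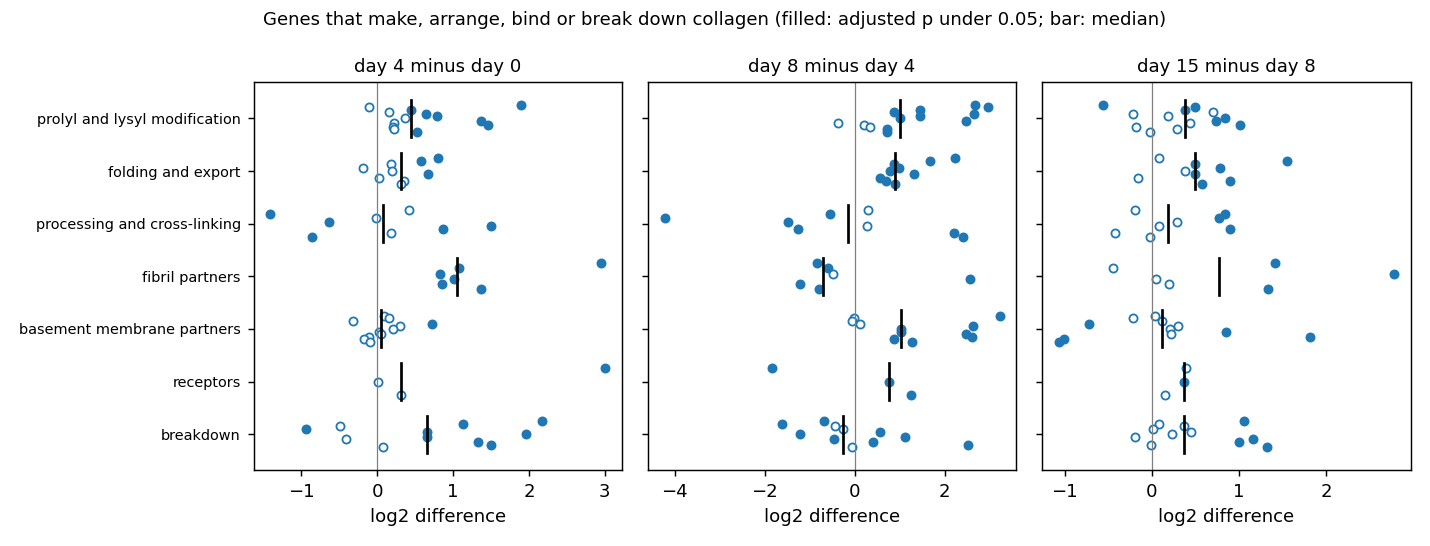
Log2 difference (x axis) of each tested gene of 7 lists of collagen partners (rows) in each step, day 4 minus day 0 (left), day 8 minus day 4 (middle) and day 15 minus day 8 (right); filled points have an adjusted p under 0.05 and the vertical bar is the list's median. In the second step all 9 genes of folding and export are filled and to the right of 0, while 4 of the 6 fibril partners are filled and to the left. Creb3l1, of folding and export, passed the detection filter through days 8 and 15.

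Some markers of other cell types moved in the same steps as the collagens. In the second step 25.6% of all tested probes were called higher and 26.3% lower, and in the last step 10.8% and 8.38%. All 9 tested parietal endoderm markers were called higher on day 8 against day 4, as the type IV pair was. Their summed level was 14.54 to 14.77 on day 8 and 13.04 to 13.32 on day 4 (log2 of the sum over the list, range of 3 arrays), and 3 of the 9, Sparc, Lama1 and Lamb1, are also on the partner lists. Of 5 visceral endoderm markers, 4 were called higher in that step, and Afp was detected on 0 arrays of day 4 and 3 of 3 on day 8. Pou5f1, a pluripotency factor, averaged 7.43 ± 0.43 on day 8 and 11.16 ± 0.07 on day 4, in the step in which Col18a1 and Col9a3 fell. Of the 6 pluripotency markers, 5 were called lower and 1 higher in that step. Of 10 mesenchyme and fibroblast markers, 9 were tested, and 2 were called higher and 1 lower on day 15 against day 8 (median log2 difference 0.10). The 2 higher were Dcn and Lum, both also on the fibril partner list, and Lum passed the detection filter through day 15. The summed level of the list was 12.81 to 13.12 on day 15 and 12.40 to 12.74 on day 8. Both tested smooth muscle markers, Acta2 and Tagln, were higher on day 15 than on day 8, with Cnn1, Myh11 and Des detected on 0 arrays of day 15. The 4 basal epithelial markers had a summed level of 10.47 to 11.23 on day 15 and 6.97 to 7.56 on day 8, and Krt14 and Krt15 were detected on 0 arrays before day 15, so that they passed the detection filter through day 15 alone. Of 9 cartilage and bone markers, 6 were detected on 0 arrays of day 15. The part of any of these cell types in the collagen results was not tested, and in whole cultures fewer cells of a type and less RNA per cell cannot be told apart.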

How the data were processed

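RNA from 12 samples of W9.5 cells, 3 per day, was hybridised to Illumina mouse bead arrays. The authors deposited a scanner intensity and a detection p-value per probe and array, per the file headers not normalized. They also deposited a table of log2 values with the background still in it. These values kept the rank order of the scanner intensities within every array (lowest rank correlation 1), were their plain log2 on 1 array and had medians of 6.27 to 6.30. No source used here says how they were scaled, and they served as an alternative for every test. Bead arrays hold no read depth, and their number limits the precision.

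Background correction and quantile normalization of the intensities used limma's neqc (R 4.3.3, limma 3.58.1, offset 16), with the background taken from the detection p-values, and gave log2 values. Probes with a detection p under 0.05 on at least 3 arrays were kept (13421 of 24613). A linear model with 1 mean per day over all 12 arrays was fitted per probe, with moderated variances and a trend (8 residual degrees of freedom), and p-values were adjusted by Benjamini-Hochberg over the kept probes. Names came from the platform annotation, in which 20984 probes had 1 gene, 1 had several and 3628 had none, and all 37 collagen symbols are current in RefSeq. A fold against a day on which no array detected the probe is a lower bound ("at least"), with the dim level set on each array at the higher of the probe's own value and the lowest value among detected probes. The fit was tested on simulated data with known answers.

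Full values were given for each collagen gene called with a log2 difference of at least 1 in a step and for its partner chains, and up to 3 called genes were named per partner list and comparison. The collagens and all lists were chosen with earlier results of these data known. Alternatives were the authors' table, an offset of 50, no filter and a strict one, 1 probe per gene, no variance trend, the 2 days alone, a replicate block and each array left out.

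Labels number the replicates 1 to 3 on each day. Arrays with the same number deviated from their day means with correlations of -0.03 to 0.49 (median 0.32), and 14 of 18 such pairs exceeded 0.1. Arrays with different numbers gave -0.39 to 0.30 (median -0.18), and 5 of 36 pairs exceeded 0.1. Since 4 same-number pairs did not exceed 0.1 and the labels name no shared batch, the numbers were not taken to pair the samples, although shared batches were not excluded.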

Additional observations from a re-analysis of the deposited data

How the results depend on the processing

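The counts of called collagen probes kept within 1.5 times their values under all 20 alternatives run. On day 4 against day 0 the 10 calls became 8 to 11 when 1 array was left out and 9 to 12 under the other settings. The 13 calls of day 8 against day 4 became 10 to 14 and 10 to 17, the 12 of day 15 against day 8 became 9 to 12 and 9 to 13, and the 20 of day 15 against day 0 became 18 to 21 and 15 to 22. The 21 probes called over the 4 days became 19 to 22 and 14 to 26. Among the settings that kept all arrays, the lowest counts came under the strict filter, which left 15 collagen probes to test, and the highest without a filter, which tested all 55. Of 55 calls of single probes, 36 held under every alternative that tested the probe, 0 reversed, 17 were lost only by leaving out 1 array, and 2 under a setting that kept all arrays. Of 41 probe comparisons without a call, 9 were called under some alternative; the cause was not tested. With the replicate block the counts for the 4 comparisons were 12, 13, 12 and 21, and over all probes they were 4527, 7820, 3535 and 9493, against 3326, 6962, 2571 and 8736 without it. Under the block, calls were gained by Col9a3 and Col1a2 on day 4 against day 0 and by Col10a1 on day 15 against day 0. The chip as a block was not run, since the column headers do not give the chip. Near the detection floor, 5.07 to 5.24 on the log2 scale, changes are compressed. A probe that is the brightest on each of the arrays compared cannot differ between them after quantile normalization.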

Other observations

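Markers of 4 further cell types were followed beside the collagens. Of all tested probes, 25.6% were called higher and 26.3% lower on day 8 against day 4, and 10.8% and 8.38% on day 15 against day 8. Of 4 tested endothelial genes, 2 were called higher and 0 lower on day 15 against day 8 (0 lower also at an unadjusted p under 0.05 by limma), with a summed log2 level of 9.49 to 10.10 on day 15 and 8.29 to 8.39 on day 8. Of 4 tested neural genes, 3 were called higher in that step, with a summed level of 10.01 to 10.35 on day 15 and 7.84 to 8.25 on day 8. The neural sum had been 10.32 to 10.48 on day 0 and 8.95 to 8.98 on day 4. Of 6 pluripotency genes, 4 were called higher on day 15 against day 8, after 5 had been called lower and 1 higher on day 8 against day 4. Their summed level was 14.55 to 14.91 on day 0, 12.50 to 12.62 on day 8 and 13.05 to 13.11 on day 15. Of the 2 tested genes of the pancreatic progenitor list, both were called higher on day 8 against day 4, and one of them, Sox9, averaged 8.48 ± 0.04 on day 8 and 6.22 ± 0.19 on day 4 (SD, n = 3 each). All 5 tested visceral endoderm markers were called lower on day 15 against day 8, in the step in which Col3a1, Col6a1 and Col26a1 rose. Their summed level was 12.07 to 12.68 on day 15 and 14.49 to 14.82 on day 8.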
